A study of Mus musculus with 4 samples.

Results

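The integrated stress response is the program that a cell starts when one of its kinases phosphorylates the translation initiation factor eIF2. Most protein synthesis then slows, while the mRNA of the transcription factor ATF4 is translated more. ATF4 and the bZIP factors it works with switch on genes for amino acid supply and redox balance, and genes that restrain growth or promote cell death when the stress lasts. In liver the program is known to respond to shortage of amino acids, to endoplasmic reticulum stress and to mitochondrial stress. The 10 genes described here are regulators of this program: the transcription factors Atf3, Atf4, Atf5 and Ddit3, the chromatin-associated cofactor Nupr1, the pseudokinase Trib3, the glutathione-degrading enzyme Chac1, the phosphatase subunit Ppp1r15a, and the growth inhibitors Sesn2 and Ddit4. They were taken by name as the non-control probes that carry one of these symbols, which gave 11 probes for 10 of the 30439 genes or transcripts on the array. The members were selected on the genotype difference seen in these same arrays, so that difference is described below and supports nothing by itself.

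RNA from whole liver was hybridized to 4 one-color arrays, so that each genotype was measured once with and once without refeeding. All mice were male C57BL/6J on a high-fat diet (HFD), for 24 weeks per the labels, begun at 4 weeks of age per the methods. Drp1LiKO mice carry Alb-Cre Tg/+ and Drp1 flox/flox, so that the albumin promoter drives loss of the mitochondrial fission GTPase Drp1 (gene Dnm1l) in hepatocytes. Control (Cont) mice, called wild type in the labels, were Drp1 flox/flox littermates without it, so both groups carry the floxed alleles. Whole liver also holds other cells, in which this promoter is not normally active. The labels mark 1 Cont and 1 Drp1LiKO array as refed, and the series design gives 17 h of fasting followed by 4 h of refeeding. The other 2 arrays have no feeding label. The study's own text treats the livers of this set as fasted and refed, but the series design names no group that stayed fasted, so these 2 livers are called not refed. The labels give their raw data as shared with earlier submissions. The sources used here do not say whether an array holds 1 animal or a pool. With 1 array per group no spread between animals exists. The errors given are measurement SEs from the scanner's error model, which rest mainly on its fixed multiplicative error setting of 0.1. For most differences they come to 0.20 or 0.21 on the log2 scale.

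Between 48.7 and 58.2% of 43020 gene spots were well above background on an array, and no spot was saturated. The 75th percentile of signal, to which each array was scaled, was 461 in Cont and 722 in Drp1LiKO livers not refed, and 357 and 526 in refed livers. The 12 hepatocyte markers were all well above background on all 4 arrays. The single Dnm1l probe, at position 3993 of its transcript, differed between Drp1LiKO and Cont by -0.21 ± 0.20 without refeeding and -0.12 ± 0.20 after it. The deleted exons are not named in the sources used here, and a probe outside them does not check the genotype, so the labels were not tested by this gene. For the feeding labels, Igfbp1, a liver gene repressed by insulin, differed between refed and not refed livers by -1.88 ± 0.20 on the log2 scale in Cont and by -4.41 ± 0.20 in Drp1LiKO. Fasn, which encodes fatty acid synthase, was higher after refeeding by 1.54 ± 0.23 in Cont and 2.42 ± 0.24 in Drp1LiKO. Pck1, of gluconeogenesis, differed by -0.63 ± 0.20 and -1.60 ± 0.20. Of 13 genes known to be high in fasting, 4 were at least 2-fold lower and 2 higher in refed Cont livers, and 8 were lower and 0 higher in refed Drp1LiKO livers. Of all genes well above background on both arrays compared, 2.41% were lower and 1.69% higher in Cont, and 3.47% and 3.23% in Drp1LiKO. The 2 fasting genes that were higher in refed Cont livers were G6pc, also of gluconeogenesis, at 1.38 ± 0.20, and Fgf21, a hormone that liver secretes under fasting and stress, at 1.47 ± 0.20.

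Promoter sequences are shown for the 4 regulators that hold a searched motif upstream of the start, because the elements searched are those that ATF and C/EBP factors, some of them encoded by the group itself, are known to bind. Each line gives the 250 bases before the RefSeq transcription start in GRCm38.p6, in the direction of the gene, and capitals mark the motif.
Atf3, chr1:191183334-191183583, minus strand: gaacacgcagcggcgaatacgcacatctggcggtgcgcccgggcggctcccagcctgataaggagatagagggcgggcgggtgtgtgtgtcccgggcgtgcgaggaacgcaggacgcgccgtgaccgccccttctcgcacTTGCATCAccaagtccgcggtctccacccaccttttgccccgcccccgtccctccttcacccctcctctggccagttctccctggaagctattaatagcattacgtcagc
Nupr1, chr7:126625471-126625720, minus strand: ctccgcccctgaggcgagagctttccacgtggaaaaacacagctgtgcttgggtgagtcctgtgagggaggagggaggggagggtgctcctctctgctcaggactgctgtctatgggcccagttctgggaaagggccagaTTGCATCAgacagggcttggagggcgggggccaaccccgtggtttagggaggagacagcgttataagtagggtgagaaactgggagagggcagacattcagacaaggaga
Chac1, chr2:119350992-119351241, plus strand: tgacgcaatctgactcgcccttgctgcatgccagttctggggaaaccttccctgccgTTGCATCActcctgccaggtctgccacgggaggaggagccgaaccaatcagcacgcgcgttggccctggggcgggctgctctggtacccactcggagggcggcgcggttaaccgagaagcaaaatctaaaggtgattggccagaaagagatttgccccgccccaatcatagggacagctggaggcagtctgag
Ppp1r15a, chr7:45526269-45526518, minus strand: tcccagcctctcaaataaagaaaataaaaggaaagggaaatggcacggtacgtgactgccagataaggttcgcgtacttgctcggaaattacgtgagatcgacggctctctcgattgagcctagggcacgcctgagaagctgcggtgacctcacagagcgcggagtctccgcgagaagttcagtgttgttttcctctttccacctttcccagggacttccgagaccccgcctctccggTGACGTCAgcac
The capitals in Atf3, Nupr1 and Chac1 are TTGCATCA, which on the opposite strand matches TGATGNAA, the core of the composite element for C/EBP and ATF factors. The match began 110 bases before the start in both Atf3 and Nupr1, and 193 bases before it in Chac1. Ppp1r15a held the palindrome TGACGTCA, the cyclic AMP response element, 12 bases before the start. Trib3 held TTACATCA, again a match to TGATGNAA on the opposite strand, 15 bases into the transcribed part, which is not printed. Both strands were searched in the 250 bases before and 50 bases after the start, and all 10 genes matched a RefSeq window. TGATGNAA was found in 4 of 10 regulators and in 4.51% of 27025 genes, and TGACGTCA in 1 of 10 and in 2.03%. The 2 motifs do not overlap in any regulator. A match is a description of letters, and the lack of one says only that these letters are not in the window.

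All 10 regulators were well above background on all 4 arrays. Differences of 2-fold or more were called, provided that the brighter of the 2 signals was well above background. Without refeeding, 5 of the 10 were called higher in Drp1LiKO and 0 lower, where 8.06% of 18040 genes were called higher and 5.19% lower. After refeeding, 5 were again called higher and 0 lower, against 8.05% and 6.33% of 17446 genes. Since these contrasts chose the members, nothing is read from the distance to the background or from the ranks in these contrasts given below. Atf3, Nupr1, Trib3 and Ddit3 were called in both states, Ddit4 only in livers not refed and Chac1 only in refed livers; whether that differs between states was not tested. The median difference of the 10 was 1.45 without refeeding and 1.24 after it, and the median over all genes was -0.08 and -0.04. The regulators spanned 0.44 to 5.58 in the first comparison and -0.35 to 4.51 in the second, and 10 and then 9 of them were above 0.

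**Figure D1:**
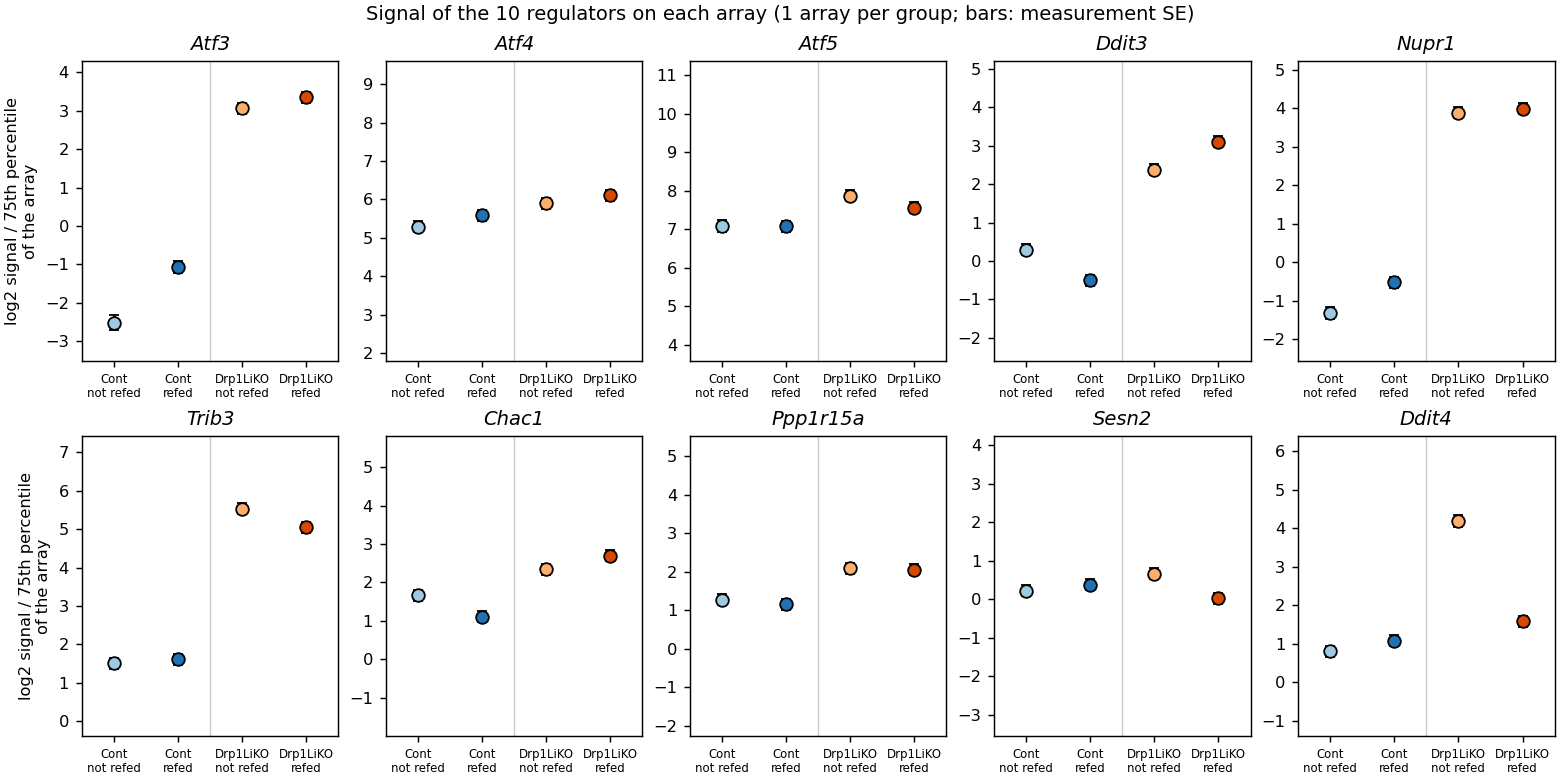
Signal of each regulator on the 4 arrays, in log2 units relative to the 75th percentile of the array, with 1 point per array and the measurement SE as bars. Every panel spans the same number of log2 units. Every regulator but Sesn2 sits higher on both Drp1LiKO arrays than on both Cont arrays. Atf3, Nupr1, Trib3 and Ddit3 differ between genotypes by more than 2-fold in both states, and Ddit4 is high on the Drp1LiKO array not refed.

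Among the transcription factors, Atf4 is the factor on which the program converges, and its activity is set mostly by translation of its mRNA. Its signal, in log2 units relative to the 75th percentile of the array, was 5.29 in Cont and 5.90 in Drp1LiKO livers not refed, and 5.59 and 6.10 in refed livers. Both Drp1LiKO arrays were above both Cont arrays, by 0.61 ± 0.20 without refeeding and 0.51 ± 0.20 after it, or 1.53-fold and 1.43-fold. A second Atf4 probe, nearer the 5' end of the transcript at position 504, gave 0.95 ± 0.20 and 0.74 ± 0.20. The probe used lies at chr15:80087902-80087961 in the mm9 build of the scanner files, at position 1655 of the transcript. Exon and UTR annotation of that build was not used here, so positions are those within the transcript that the files give.

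Atf5, a relative of Atf4 that is linked to the mitochondrial unfolded protein response, had signals of 7.08 and 7.87 in Cont and Drp1LiKO livers not refed. In refed livers they were 7.07 and 7.56. The order of genotypes was the same in both states, with differences of 0.79 ± 0.20 and 0.49 ± 0.20, measured at chr7:52067627-52067686 (mm9). Quantile normalization raised the first to 1.08, past 2-fold, and the Atf4 difference without refeeding to 0.96.

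Atf3 encodes a bZIP repressor and activator that is induced by many stresses. It read -2.52 in Cont and 3.06 in Drp1LiKO livers not refed, and -1.08 and 3.35 in refed livers. The Cont arrays were low and the Drp1LiKO arrays high in both states, and the 2 Cont values lay further apart than the 2 Drp1LiKO values. The difference of 5.58 ± 0.24, or 47.8-fold, ranked 4 of 18040 genes without refeeding, and the difference of 4.42 ± 0.21, or 21.4-fold, ranked 25 of 17446 after it. On the scale of the scanner the Cont signal not refed was 80.5 and that of Drp1LiKO 6031. Normexp background correction, with an offset of 50 added to every signal, gave 4.74 and 4.02. The probe lies at chr1:192994547-192994606 (mm9), at position 1545 of the transcript.

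Ddit3 encodes CHOP, the C/EBP family factor that links prolonged stress to cell death. Its signal was 0.29 in Cont and 2.38 in Drp1LiKO livers not refed. In refed livers it was -0.50 and 3.10, so that the lowest Cont and the highest Drp1LiKO value were both from refed livers. The genotype difference was 2.09 ± 0.20 without refeeding and 3.60 ± 0.21 after it, 4.26-fold and 12.1-fold. Its probe spans chr10:126732518-126732821 in mm9, 304 bases for a probe of 60, so its match to the genome is split.

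Nupr1, a small stress-induced chromatin protein, read -1.33 in Cont and 3.88 in Drp1LiKO livers not refed, and -0.52 and 3.99 in refed livers. The 2 Drp1LiKO values were within 1 measurement SE of each other and far above both Cont values. The difference was 5.21 ± 0.21 (37.0-fold) and 4.51 ± 0.21 (22.8-fold), ranks 13 and 22 among the genes compared, from a probe at chr7:133766978-133767037 (mm9). Trib3 encodes a pseudokinase that is induced by ATF4 and CHOP and binds ATF4 and AKT. Its signal was 1.505 and 5.53 in Cont and Drp1LiKO livers not refed, and 1.62 and 5.05 in refed livers. The genotypes did not overlap, and the difference was 4.02 ± 0.20 (16.2-fold) and then 3.43 ± 0.20 (10.8-fold). The probe lies at chr2:152163161-152163220 (mm9), at position 1991 of the transcript.

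Chac1 encodes an enzyme that splits glutathione. Its signal was 1.66 in Cont and 2.34 in Drp1LiKO livers not refed, and 1.11 and 2.70 in refed livers. The gap between genotypes was thus wider after refeeding, at 1.59 ± 0.20 (3.01-fold) against 0.68 ± 0.20 (1.60-fold), from a probe at chr2:119179990-119180049 (mm9). Ppp1r15a encodes GADD34, the subunit that directs a phosphatase to eIF2 and ends the response. It read 1.28 and 2.09 without refeeding and 1.16 and 2.06 after it, in Cont and Drp1LiKO in each case. The differences of 0.82 ± 0.20 and 0.90 ± 0.20 were under 2-fold in both states, from a probe at chr7:52778320-52778379 (mm9).

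Sesn2 and Ddit4 both restrain the growth kinase mTORC1, Sesn2 as a leucine sensor and Ddit4, also called REDD1, through the TSC complex. The signal of Sesn2 was 0.22 in Cont and 0.66 in Drp1LiKO livers not refed, and 0.37 and 0.02 in refed livers. The order of the genotypes was reversed between states, with differences of 0.44 ± 0.20 and -0.35 ± 0.21, neither of 2-fold, and the second within 2 measurement SEs of 0. The probe lies at chr4:132048858-132048917 (mm9). Ddit4 read 0.80 in Cont and 4.19 in Drp1LiKO livers not refed, and 1.07 and 1.58 in refed livers. The Drp1LiKO array not refed stood high, and the other 3 lay between 0.80 and 1.58. The genotype difference was 3.39 ± 0.20, or 10.5-fold, without refeeding, and 0.50 ± 0.20, or 1.42-fold, after it, measured at chr10:59412486-59412545 (mm9).

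**Figure D2:**
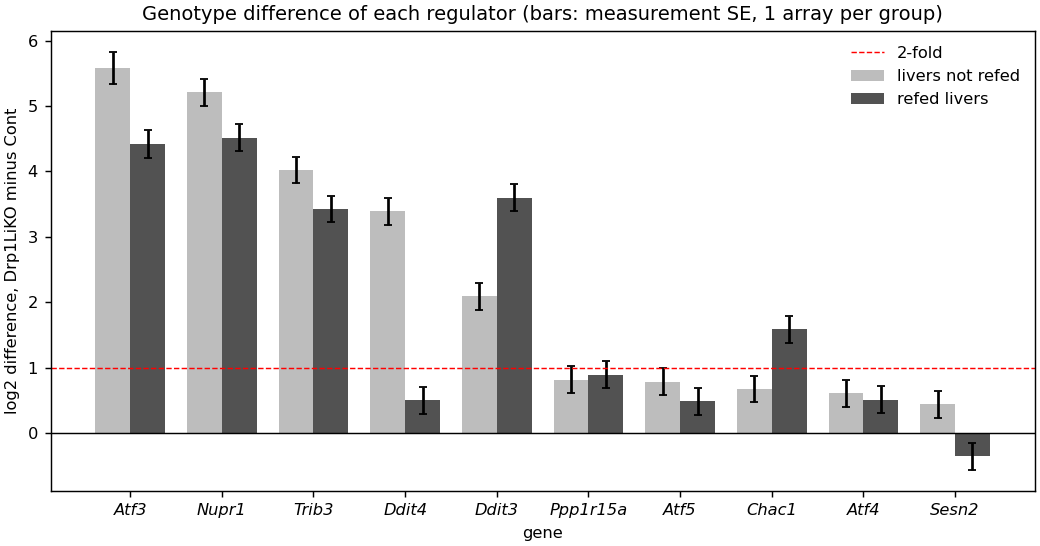
Difference between Drp1LiKO and Cont of each regulator, on the log2 scale, in livers not refed (light bars) and refed livers (dark bars), with the measurement SE and 1 array per group. The dashed line marks 2-fold, and Atf3 and Nupr1 show the highest bars in both states, while the Ddit4 bar falls from 3.39 to 0.50 and the Sesn2 bar changes sign.

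The refeeding difference asks how each genotype's liver differed between the array labelled refed and the one not so labelled. It uses the same 4 arrays as the genotype difference, so the values are given side by side and not related to each other. In Cont, 1 of the 10 regulators was called higher after refeeding, Atf3 at 1.44 ± 0.25 (2.72-fold), and 0 lower. Over all genes, 4.47% of 16437 were called higher and 5.83% lower. Normexp background correction put Atf3 at 0.96, under 2-fold. Nupr1 was 0.80 ± 0.21 above its value without refeeding, and Ddit3 and Chac1 were below theirs, at -0.79 ± 0.21 and -0.55 ± 0.20. The other 6 lay between -0.11 and 0.30, within 2 measurement SEs of 0.

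In Drp1LiKO, 0 regulators were called higher after refeeding and 1 lower, against 5.61% and 7.15% of 18329 genes. The gene called was Ddit4, at -2.61 ± 0.20 or 6.12-fold lower, the 278th lowest value of all genes compared. Ddit3 was 0.72 ± 0.20 higher and Sesn2 lower, at -0.64 ± 0.20. Trib3 was at -0.48 ± 0.20, Chac1 at 0.36 ± 0.20 and Atf5 at -0.31 ± 0.20. Atf3, Atf4, Nupr1 and Ppp1r15a lay between -0.04 and 0.28 and within 2 measurement SEs of 0. The median over the 10 was 0.14 in Cont and 0.04 in Drp1LiKO, beside 0.09 and 0.08 over all genes.

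The refeeding difference in Drp1LiKO minus that in Cont was at least 2-fold in size for 3 regulators, against 4.25% of 14447 genes well above background on all 4 arrays. It was -2.88 ± 0.29 for Ddit4, the 17th in size among those genes. It was 1.51 ± 0.29 for Ddit3 and -1.16 ± 0.32 for Atf3. For the other 7 it ran from -0.80 for Sesn2 to 0.91 for Chac1. Median scaling put Chac1 at 1.02, past 2-fold, and normexp put Atf3 at -0.73, under it. The same quantity is the genotype difference after refeeding minus that without it. Since those contrasts chose the members, nothing is read from the share or the rank beside all genes. With 1 array per group no test of this quantity exists. A limma model that adds a genotype and a refeeding term has 1 residual degree of freedom and counts any such dependence as error. With the main processing its refeeding term called 0 of 16744 genes at a Benjamini-Hochberg adjusted p under 0.05, a background of 0%. An unadjusted limma p under 0.05 was found for 4414, none of them a regulator. The lowest adjusted p among the regulators by limma was 0.218, for Atf3 at 0.86 ± 0.34. That of Ddit4 was 0.387, at -1.17 ± 0.79. Each alternative setting put 1 regulator, Atf3 or Atf5, at an unadjusted limma p under 0.05, except the model with no genotype term.

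**Figure D3:**
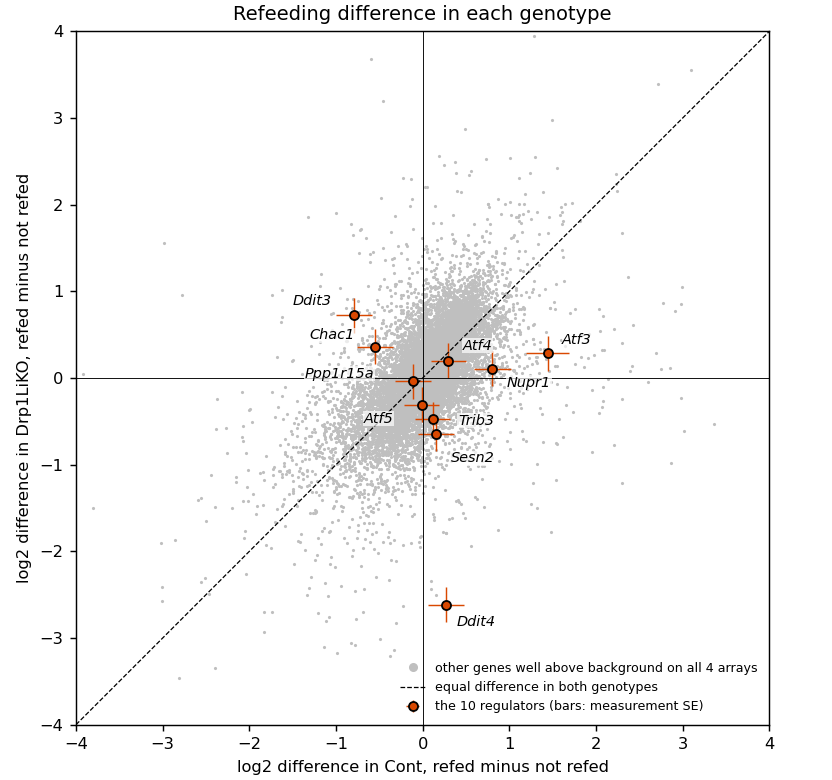
Refed minus not refed on the log2 scale in Cont (horizontal axis) and in Drp1LiKO (vertical axis), with the 10 regulators in orange with measurement SEs and the other genes well above background on all 4 arrays in grey; 3 genes lie outside the axes. Ddit4 sits low at 0.27 and -2.61, Atf3 lies to the right at 1.44 and 0.28, and Ddit3 and Chac1 lie above 0 in Drp1LiKO and below 0 in Cont.

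The genes upstream of ATF4 were described with a list of the eIF2 kinases, the eIF2 and eIF2B subunits and their modifiers. All 15 were measured, and 0 differed between genotypes by 2-fold without refeeding, with a median of 0.10. After refeeding 2 were higher and 0 lower, with a median of 0.35. They were Eif2ak2, the kinase PKR that senses double-stranded RNA, at 0.06 ± 0.20 without refeeding and 1.44 ± 0.21 after it, and Impact, an inhibitor of the kinase GCN2, at 0.88 ± 0.21 and 1.05 ± 0.21. Eif2ak3, the endoplasmic reticulum kinase PERK, was at 0.66 ± 0.21 and 0.55 ± 0.21. Ppp1r15b, the constitutive relative of Ppp1r15a, was at -0.50 ± 0.21 and -0.30 ± 0.21. Array signals are of RNA and do not show whether eIF2 was phosphorylated. Close relatives of the regulators, such as Ppp1r15b, Trib2, Sesn3 and Jdp2, were measured on both arrays for 9 genes without refeeding and 8 after it. None of them reached 2-fold between genotypes in either state, and their medians were 0.07 and 0.11.

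Counts for the lists are of genes well above background on both arrays compared, since a gene seen on the brighter array alone had to differ. Of all genes measured in this way, 3.03% were 2-fold higher in Drp1LiKO and 3.68% lower without refeeding, with a median of -0.12, and 3.17% and 4.39% after refeeding, with a median of -0.08. All lists were chosen with earlier results of these data known, so their counts beside these shares support nothing by themselves. Downstream, 25 of 35 textbook targets of ATF4 outside the regulators were measured in each state. In Drp1LiKO 8 of the 25 were at least 2-fold higher and 0 lower without refeeding, with a median of 0.52. After refeeding 5 were higher and 0 lower, with a median of 0.33. Asns, asparagine synthetase, was at 3.78 ± 0.26 and 3.65 ± 0.21, and Psat1, of serine synthesis, at 4.04 ± 0.27 in refed livers. Fgf21 was at 2.58 ± 0.20 without refeeding and -0.67 ± 0.20 after it. Vldlr, the receptor for very low density lipoprotein, was lower in both states, at -0.60 ± 0.21 and -0.93 ± 0.25, and Shmt2, a mitochondrial serine enzyme, was at -0.80 ± 0.20 without refeeding, none of them by 2-fold. Slc7a11, Slc7a3 and Pck2 were not well above background on any array.

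The bZIP partners of ATF4 and the C/EBP factors were described as well. Of 15 measured without refeeding, 0 were 2-fold higher or lower, with a median of 0.07. After refeeding 1 of 14 was higher and 0 lower, with a median of 0.15. The highest without refeeding was Cebpd, an acute-phase factor, at 0.87 ± 0.20, and the one called after refeeding was Batf at 1.24 ± 0.10. Cebpa, which maintains hepatocyte identity, was at -0.60 ± 0.20 and -0.84 ± 0.20.

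The other arms of the endoplasmic reticulum stress response, which run through XBP1 and ATF6, lay on the other side of 0. Of 20 genes, 0 were 2-fold higher and 1 lower in Drp1LiKO without refeeding, 19 were below 0 and the median was -0.56. The gene that was lower by 2-fold was Calr, a calcium-binding chaperone, at -1.24 ± 0.20. After refeeding none passed 2-fold in either direction, 15 were below 0 and the median was -0.20. Herpud1, of endoplasmic reticulum protein disposal, was at -0.91 ± 0.20 and Dnajb9, a chaperone cofactor, at 0.84 ± 0.20. Between feeding states 3 of the 20 were at least 2-fold higher after refeeding in Cont and 10 in Drp1LiKO. Of all genes well above background on both arrays compared, 1.69% and 3.23% were. Values of this and the other lists, cell type markers included, were not recomputed under the other normalizations. Without refeeding, quantile normalization raised the genotype difference of Atf4 from 0.61 to 0.96 and of Atf5 from 0.79 to 1.08. Whether list medians move in the same way was not tested.

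**Figure D4:**
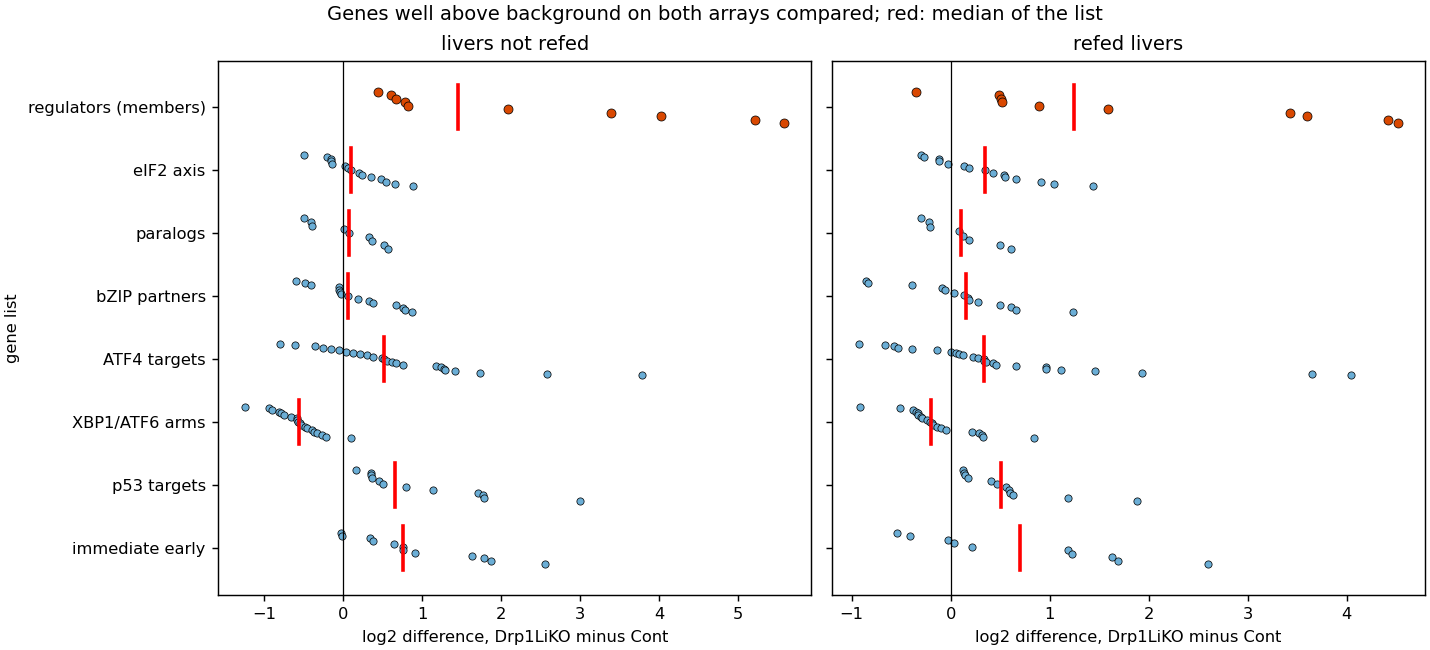
Log2 difference between Drp1LiKO and Cont of each gene of 8 lists in livers not refed (left) and refed livers (right), for genes well above background on both arrays, with the median of the plotted genes as a red line. The regulators, in orange, reach the highest values, and the XBP1 and ATF6 genes are mostly below 0 in livers not refed, with a median of -0.56.

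Several regulators are also known targets of p53 or of growth factor and injury signals, so lists of these were set beside them. Of 12 measured p53 targets, 5 were 2-fold higher and 0 lower in Drp1LiKO without refeeding, with a median of 0.65, and 2 were higher and 0 lower after refeeding, with a median of 0.51. Cdkn1a, the cell cycle inhibitor p21, was at 2.996 ± 0.07 and 1.88 ± 0.08. Of the immediate early genes, 4 of 12 were 2-fold higher and 0 lower without refeeding and 5 of 10 and 0 after it, with medians of 0.76 and 0.70. Egr1, a zinc-finger factor of this class, was at 2.55 ± 0.21 and 1.68 ± 0.21, and Myc at 2.60 ± 0.35 in refed livers.

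The profile of the regulators over the 4 arrays was averaged after centring each gene on its own mean, and other genes were ranked by their root mean square distance to it. The nearest of 14447 genes were Cyb5r1, Ifrd1, Egr1, Car2 and Ly6a, at distances of 0.098, 0.141, 0.143, 0.159 and 0.168 on the log2 scale. Ifrd1, for example, read 0.64 and 2.76 in Cont and Drp1LiKO livers not refed and 0.88 and 2.88 in refed livers. Cyb5r1 read -0.73, 1.46, -0.47 and 1.34 in the same order. The regulators themselves lay between 0.588, for Ddit3, and 1.501, for Atf3, from their mean profile, further than these 5 genes. The order rests on 4 arrays and is a description.

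Cell type markers also differed with genotype. A sum over markers is set by its brightest probes, so the count of markers on each side of 0, or their median, is given with it. Of genes well above background on at least 1 of the 2 arrays compared, 43.7% were higher in Drp1LiKO without refeeding and 46.1% after it. Markers counted by side of 0 below were well above background on both arrays compared. The median over all such genes was -0.12 without refeeding and -0.08 after it. The summed signal of the 12 hepatocyte markers, as a multiple of the 75th percentile, was 4652 in Cont and 3088 in Drp1LiKO livers not refed, and 5635 and 3805 in refed livers. In both states 10 of the 12 were lower in Drp1LiKO, with medians of -0.58 and -0.53, while Tat was at 1.04 ± 0.20 and 0.98 ± 0.20 and Cps1 at 0.60 ± 0.20 and 1.24 ± 0.20. The 12 macrophage markers, all well above background on all 4 arrays, summed to 108 and 125, and then 117 and 205. Of these, 8 were higher in Drp1LiKO without refeeding and 11 after it, with medians of 0.21 and 0.70. The 7 markers of lipid-associated macrophages summed to 3.12 and 8.10, and then 3.36 and 8.15. Those well above background on both arrays, 6 without refeeding and 5 after it, were all higher in Drp1LiKO, with medians of 1.28 and 1.19. Of the 7, 5 were well above background on all 4 arrays, and Trem2 was at 2.43 ± 0.21 and 1.64 ± 0.21.

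The 10 stellate cell markers summed to 48.2 and 71.5, and then 55.0 and 62.6. Without refeeding 9 of the 10 were higher in Drp1LiKO, with a median of 0.82. After refeeding the 9 well above background on both arrays had a median of 0.06. The 10 neutrophil markers summed to 6.52 and 3.96, and then 7.32 and 11.3, and no array had Ngp or Cxcr2 well above background. Without refeeding, 5 of the 6 neutrophil markers well above background on both arrays were lower in Drp1LiKO, with a median of -0.87. After refeeding the 6 that were well above background on both arrays had a median of 0.38. The 7 cholangiocyte markers, with Epcam not well above background on any array, summed to 23.3 and 6.81, and then 12.8 and 5.26. Most of that sum was Onecut1, which hepatocytes express too, at -2.00 ± 0.20 and -1.54 ± 0.20. In each state 4 markers were well above background on both arrays compared, with medians of 0.73 without refeeding and 0.02 after it. The 8 endothelial markers summed to 55.1 and 46.4, and then 58.1 and 39.4, most of it from Clec4g, Kdr and Stab2. The 7 endothelial markers well above background on both arrays had medians of 0.04 without refeeding and -0.24 after it.

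The 7 adipocyte markers summed to 139 and 41.2, and then 225 and 71.4. Most of each sum was Car3, at 132, 38.6, 201 and 67.7 in the same order, and which cells gave its signal was not tested. Only 3 of these markers could be compared between genotypes. In each state 2 of them were lower in Drp1LiKO and 1 was higher, Fabp4, at 0.01 ± 0.20 and 0.31 ± 0.20. The defining genes Adipoq, Plin1, Lep and Retn were not well above background on any array, and Cfd, which encodes adipsin, was at -5.07 ± 0.22 and -6.27 ± 0.21 and Car3 at -1.77 ± 0.20 and -1.57 ± 0.20. The 5 erythroid markers summed to 175 and 98.2, and then 207 and 198, with Slc4a1 at -3.69 ± 0.24 without refeeding and 0.04 ± 0.27 after it. Of the 4 erythroid markers well above background on both arrays, 4 were lower in Drp1LiKO without refeeding and 1 after it. Their medians were -0.90 and 0.04. Fewer cells of a type and less RNA per cell cannot be told apart in whole liver, and the part of these cell types in the regulators' values was not tested. All 4 arrays lay on 1 slide and shared 1 scan, so no slide or scan batch separates the groups.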

How the data were processed

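The arrays are one-color Agilent Whole Mouse Genome 4x44K v2 arrays per the labels, while the methods name another Agilent design and another RNA kit. The authors deposited scanner files, from which the background-subtracted intensity of each spot was taken, on a linear scale and not normalized between arrays. The headers name Feature Extraction 10.7.1.1 and the submitters' processing notes version 9.5.1.1. The authors' value table, used as an alternative, also holds intensity values on a linear scale, and it equals a quantile normalization of the linear signals to within 7.15e-10 on the log2 scale. The quantile normalization tried as an alternative was done on log2 values, so its results differ from those of the authors' values.

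The log2 intensities were scaled to the 75th percentile of the array, outlier spots were dropped and repeated spots averaged. Of 39429 probes, 37 were left out, and 26733 were named by RefSeq accession while 12659 kept the name in the file. A gene with several probes was represented by the probe well above background on the most arrays, then the brightest. The SD of repeated spots of 1 probe lay between 0.0587 and 0.0739 as a median per array, and the number of arrays limits the precision of any comparison. Differences were called at 2-fold, and limma 3.58.1 in R 4.3.3 fitted genotype and feeding state. The limma procedure was tested on simulated data and recovered 200 of 200 genes changed 8-fold among 16744 for the refeeding term, with 2 false calls. The simulation gave every gene the same noise, with no genotype effect and no dependence of refeeding on genotype. It therefore checks that the procedure runs correctly and does not measure its power on these arrays. Python 3.11.15 with pandas 2.3.3 and matplotlib 3.10.9 was used for the rest.

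Groups came from the labels. The regulators and all gene lists were chosen with earlier results of these data known. Named genes are the regulators, the 2 highest and 2 lowest genes of each list in the genotype difference among those well above background on both arrays, Pck1, Igfbp1 and Fasn, and the 5 genes nearest to the mean profile of the regulators. Genes listed as never well above background, and those given with a list's count, were named outside this rule after their values were seen, and Dnm1l was added as the targeted gene. One further refeeding marker and the summed lymphocyte markers are not reported here. Gene families of the lists can share sequence, and cross-hybridization was not tested. Promoters and start sites are from RefSeq for GRCm38.p6 and probe positions from the mm9 coordinates of the scanner files. The alternatives were median scaling, quantile normalization, normexp with an offset of 50, the authors' values, the median over probes, dim signals at their bound, a stricter filter, a 1.5-fold threshold and, for limma, an intensity trend and no genotype term.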

Additional observations from a re-analysis of the deposited data

Results flagged for a closer look

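For 5 regulators the single Cont pair and the single Drp1LiKO pair moved in opposite directions between the array not refed and the refed array, and the difference between genotypes was not tested because each group has 1 array. The refeeding difference in Drp1LiKO minus that in Cont was -2.88 for Ddit4, 1.51 for Ddit3, 0.91 for Chac1, -0.80 for Sesn2 and -0.59 for Trib3, with measurement SEs of 0.29. Only for Ddit3 was the value in each genotype more than 2 measurement SEs from 0. For Ddit4 the Cont value, and for Chac1 the Drp1LiKO value, lay between 1 and 2 SEs from 0. For Trib3 and Sesn2 the Cont value was within 1 SE of 0. Opposite signs were found in 3426 of 14447 genes well above background on all 4 arrays.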

How the results depend on the processing

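No paired analysis was possible because each group holds 1 array and the labels carry no replicate numbers shared between groups, and for the same reason no array could be left out. At 1.5-fold in place of 2-fold the number of regulators called rose from 5 to 9 for genotype without refeeding, from 1 to 3 for refeeding in Cont and from 1 to 3 for refeeding in Drp1LiKO, where 28.2%, 21.8% and 32.4% of all genes compared were called in either direction at 1.5-fold. With normexp background correction the number called for refeeding in Cont was 0 in place of 1. The limma refeeding term called 21 genes with normexp (12 higher, 9 lower) and 15 of 14447 when restricted to genes well above background on all 4 arrays (6 higher, 9 lower), in place of 0, and no regulator in any setting. Of the single values, 244 moved by less than their measurement SE and 36 by more, and no called value changed sign. The 244 include values that could not move. Dim signals at their bound left every regulator as it was, since all were well above background, and the median over probes could change only Atf4. Uncalled values did so for the refeeding difference in Drp1LiKO of Atf4 (-0.28) and Nupr1 (-0.16) under quantile normalization and of Ppp1r15a (0.05) under median scaling, and for the refeeding difference in Drp1LiKO minus that in Cont of Atf4 (0.01, median scaling) and Ppp1r15a (-0.06, quantile normalization). Over all genes, normexp turned the split of 2-fold genotype calls without refeeding from 1454 higher and 936 lower to 364 and 558, after refeeding from 1404 and 1105 to 371 and 688, and of refeeding calls in Cont from 735 and 958 to 439 and 287 and in Drp1LiKO from 1028 and 1311 to 504 and 386, with the cause not tested. The 5 regulators called for genotype in each state were called under each normalization, and quantile normalization and the authors' values added Atf5 without refeeding.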
